A study of Drosophila melanogaster with 3 samples.

Results

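Exonic peaks outside promoters are the binding sites of rgr-GFP whose summit, the base of highest signal, fell inside an annotated exon and more than 500 bp from every annotated transcript start. They numbered 231 of the 8551 peaks that passed the reproducibility threshold, or 2.70% (exact 95% binomial interval 2.37 to 3.07%). They divided into 46 summits in 5′ UTRs, 21 in coding exons, 82 in 3′ UTRs and 82 in exons of noncoding RNA genes. Among the peaks that passed the threshold, the choice used only the position of the summit and the Ensembl annotation. The threshold itself limited signal, which was at least about 123, and replicate ranks. Base composition was not used, though the kinds of exon differ in it. The data came from chromatin immunoprecipitation and sequencing of Drosophila melanogaster strain rgr-GFP, whose stably inserted transgene adds (e)GFP to the C terminus of rgr, a protein assayed here as a transcription factor. Whole wandering larvae of the third instar, of unknown age, were used with males and females pooled, and sonicated chromatin was precipitated with an antibody against GFP. All 3 biological replicates belong to the same line and stage and form 1 group, so no untagged, mutant or treated larvae enter any comparison, and the control alignment of the peak calls was not analysed here. A summit in whole larvae does not tell strong binding in few cells from weak binding in many.

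Exons carry the sequence kept in mature RNA, and each kind has its own constraints. Coding exons are read in triplets by the ribosome and are poor in A and T in the fly, untranslated regions steer translation, stability and localization of the message, and long noncoding RNAs are spliced transcripts without a long reading frame. Most sites of sequence-specific transcription factors lie in promoters, introns and intergenic enhancers, and a minority lie in exons. Because transcripts overlap, an exon of a given transcript can be an intron of another or lie inside the intron of a neighbouring gene.

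The sequences below are the 29 bases centred on the summit (dm6, plus strand, 5′ to 3′), read from the RefSeq copy of the assembly. Capitals mark listed words on either strand: the hexamer AAATAT of A and T, the polyadenylation word AATAAA or its reverse complement TTTATT, the promoter word TATAAA, and the forkhead word TGTTTAC. The first group holds strong summits in noncoding RNA exons, to show their base composition. The summit of lncRNA:CR44468, stronger than that of lncRNA:CR44363, is not printed. They are lncRNA:CR46035 (chr3R:17704399-17704427), both summits of lncRNA:CR44619 (chrX:12752358-12752386 and chrX:12754512-12754540), lncRNA:Vinr (chrX:12751318-12751346) and lncRNA:CR44363 (chr3L:11406041-11406069).
lncRNA:CR46035: gtttctgatcaagtcactcatcaaaagac
lncRNA:CR44619, first summit: atttgaagaaaatacaaaaAAATATcgca
lncRNA:CR44619, second summit: ctaactataccataaaacaaattaagaaa
lncRNA:Vinr: aattttgatatatgccaatcccttacatg
lncRNA:CR44363: tatatatcatattggtaTTTATTtttaag
The second group holds coding summits, for comparison with the noncoding exons. CG43389 (chr3L:3248793-3248821), CG10357 (chr3L:3616533-3616561), bif (chrX:11681808-11681836) and klar (chr3L:506225-506253) were among the 5 strongest, and Ubr1 (chrX:16967601-16967629) and Snx27 (chrX:5737301-5737329) were picked after their low A and T content had been seen. The summit of otp, also among the 5 strongest, is not printed.
CG43389: ataacgaaaaggtattaaaaatgatgcgg
CG10357: ggaactcacatttctgattttacttgtcg
bif: ataccaattccgattccactggaggtcat
klar: ggccgcccagaggtcgtctttgccagacg
Ubr1: ccactccttgagcggcgaactgcactcgg
Snx27: tggtcacgcctacgccgacgcccatgacg
A last group shows strong summits in untranslated regions, from CG7872 (chrX:15579785-15579813), by (chr3R:9528621-9528649) and Cals (chr4:1113327-1113355) in the 3′ UTR and cic (chr3R:20253314-20253342) in the 5′ UTR.
CG7872: aaagcacgccacattcgcgtgtttcctaa
by: tTGTTTACaacttgggcaTATAAAcaaat
Cals: tgcaatatgctttgtTTTATTgttaaaaa
cic: ggagtatctgaggcagggctttttgcttt
In these 29 bases A and T made up 62.1% at lncRNA:CR46035, 79.3% at both summits of lncRNA:CR44619, 69.0% at lncRNA:Vinr and 86.2% at lncRNA:CR44363. Among the coding summits the same measure was 69.0% at CG43389, 62.1% at CG10357, 55.2% at bif and 31.0% at klar, and it was 34.5% at Ubr1 and 31.0% at Snx27, which were picked for it. The printed coding and noncoding summits thus overlapped in this measure.

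Summits were spread unevenly over the kinds of exon. Per Mb of annotated sequence outside promoters, the thresholded list had 1.14 summits in coding exons, 13.8 in 3′ UTRs, 44.1 in 5′ UTRs and 74.6 in noncoding exons, against 59.3 in introns, 31.7 in intergenic sequence and 213 in promoters. Coding exons made up 18.47 Mb, or 13.4% of the arms, and held 0.246% of the peaks (exact 95% interval 0.152 to 0.375%). The replicates, each cut to its 8551 highest entries, gave 226, 220 and 245 exonic summits in replicates 1, 2 and 3, or 2.69% ± 0.153 (SD, n = 3). Their coding density was 1.03, 1.08 and 1.19 per Mb and their intron density 57.4, 58.5 and 58.7 per Mb. Coding exons were therefore below introns by a log2 ratio of -5.73 ± 0.09 (SD, n = 3), and 3′ UTRs by -2.15 ± 0.01, and the replicate values of neither class overlapped those of introns. Noncoding exons stood above intergenic sequence by 1.23 ± 0.11 and slightly above introns by 0.30 ± 0.07. The excess over introns was not seen in the 4275 highest entries of each replicate, where the mean log2 ratio was -0.03. The 5′ UTR density, at 50.8, 45.1 and 58.5 per Mb, differed from the intron density by -0.18, -0.38 and -0.01, which is about as much as the replicates differed among themselves. Each of these ratios had the same sign in 3 of 3 replicates and p = 0.25 in an exact two-sided sign-flip permutation test, the smallest p that 3 replicates allow.

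**Figure D1:**
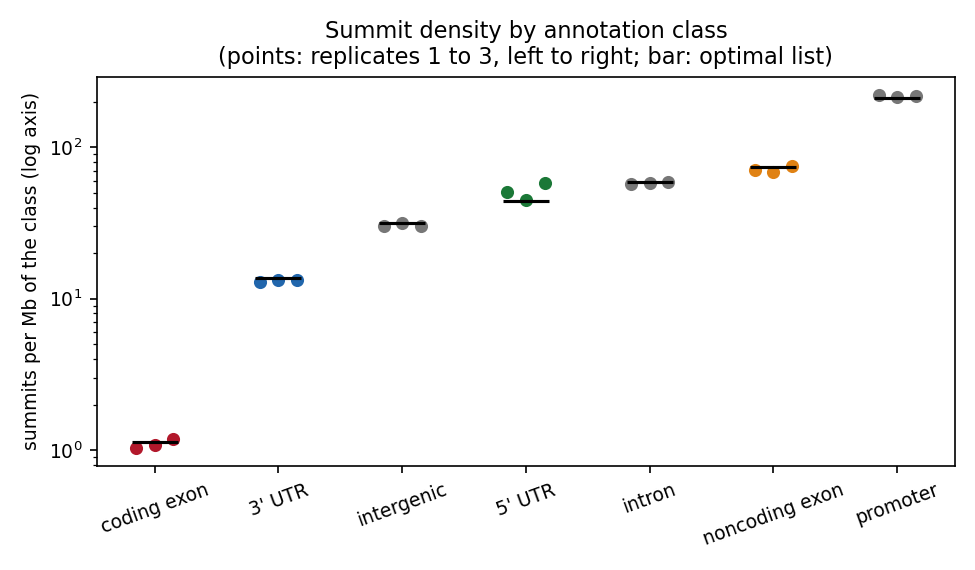
Summits per Mb of each annotation class on a log axis, with points for replicates 1 to 3 from left to right and a bar for the thresholded list. Coding exons lie lowest at 1.03 to 1.19 per Mb in the replicates, 3′ UTRs at 12.8 to 13.3, and noncoding exons at 68.3 to 75.6, above introns.

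Exonic summits made up a larger share of weak entries, as did other summits away from starts. The pooled list before thresholding held 21449 entries below the threshold, titled by the authors as peaks and background, and 1273 of them (5.94%, exact 95% interval 5.62 to 6.26%) were exonic by the same rule. From the thresholded list to the weaker entries the intronic share went from 37.3 to 48.2% and the intergenic share from 14.4 to 22.2%, while the promoter share went from 45.6 to 23.7%. Coding exons held 430 of those weaker entries, or 2.00%, against the 21 peaks above the threshold. Within the thresholded list, divided into 10 equal groups by signal, the exonic share ran from 1.64% in the second group to 3.51% in the eighth, with 2.34% in the highest group and 2.80% in the lowest. The X chromosome held 58 members, 25.1% of them, beside 18.0% of all peaks, and chromosome 4 held 3 of its 22 peaks. The remaining members lay on 2L (33), 2R (44), 3L (44) and 3R (49).

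The 3 strongest exonic summits lay in noncoding RNA genes, followed by the coding summit of CG43389. Of the 25 strongest, 9 were in noncoding exons, 8 in 3′ UTRs, 6 in 5′ UTRs and 2 in coding exons. As a class, noncoding exon summits had a median signal of 191, against 209 in 3′ UTRs, 213 in 5′ UTRs and 176 in coding exons. The authors' signal, their value on the pooled data, was 2904.1 for lncRNA:CR46035, whose summit ranked 28, 21 and 19 in replicates 1, 2 and 3. The summit lies in the 1887 bp exon of that RNA and also in an intron of osa, which encodes a subunit of the Brahma chromatin remodelling complex. On the X chromosome, lncRNA:Vinr and lncRNA:CR44619 carried 3 members within 3194 bp. The first summit of lncRNA:CR44619 had a signal of 2764.0 and ranked 23, 30 and 36. Its second summit reached 1422.5 and ranked 166, 123 and 152. The summit in lncRNA:Vinr, an RNA named for its induction by virus, reached 1945.5 and ranked 75, 77 and 71. These 4 noncoding summits thus ranked no lower than 166 in any replicate. Next among the noncoding exons were lncRNA:CR44468 (1282.5), lncRNA:CR44363 (1119.7), lncRNA:CR44854 (686.9), lncRNA:CR43334 (676.7) and lncRNA:CR45030 (553.6), the last inside an intron of Bicra. Of the 82 noncoding exon summits, 26 lay inside an intron of another, protein-coding gene, 52 were intronic in no transcript, and 5 lay in genes named as antisense RNAs.

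**Figure D2:**
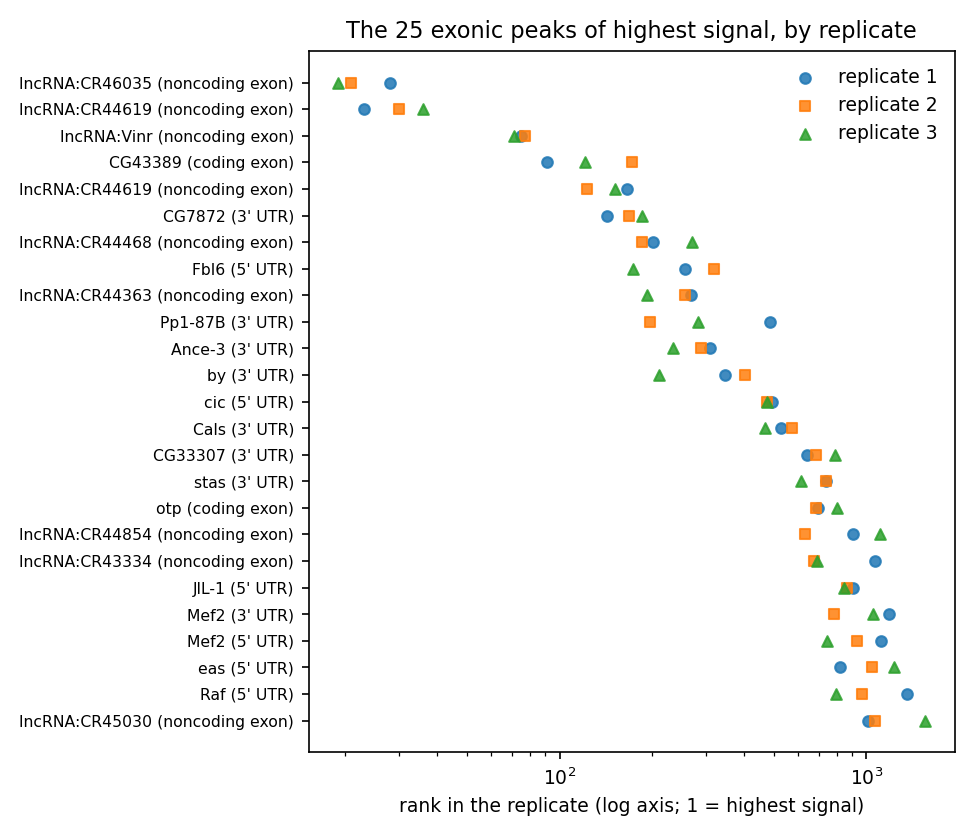
Rank of the matching summit in replicates 1 to 3 (log axis, 1 is the highest signal) for the 25 exonic peaks of highest signal, labelled by host gene and kind of exon. All 25 are found in every replicate, and the lowest rank any of them reached is 1556.

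Several noncoding hosts were primary transcripts of microRNAs. Of 37 annotated long noncoding RNA genes that hold a microRNA precursor, 9 had an exonic summit, beside 63 of all 2548 (2.47%). Those holding a microRNA were also longer, with a median of 6436 bp against 714 bp for all and 2095 bp for those with a summit. A gene without exon sequence over 500 bp from every start cannot have a member. The 2548 were not limited to genes with such sequence, and the part of length in the difference in share was not tested. The host of the growth-promoting microRNA bantam, lncRNA:CR43334, had more exonic summits than any other gene, with 5 spread over 10543 bp of a 15466 bp exon. Their signals were 676.7, 359.0, 216.4, 171.4 and 165.4. All of them lay upstream of mir-ban, from 1442 to 11985 bp away. The strongest ranked 1064, 675 and 688, and the weakest 4414, 10845 and 9146, so the last was missing from the top 8551 of replicates 2 and 3. The host of mir-8, lncRNA:CR43650, had 3 summits with signals of 419.8, 153.4 and 144.3, all downstream of the microRNA. The host of mir-276a, lncRNA:CR46006, had 3 with signals of 150.2, 134.1 and 128.0, from 2540 to 5626 bp upstream of it. Counting protein-coding hosts as well, 26 members lay in 16 genes that contain a microRNA, with a median distance of 3935 bp, and only 2 of the 26 were within 1000 bp of one. Of these members, 14 (53.8%) were among the top 8551 of each replicate, beside 60.6% of all exonic peaks and 64.8% of all peaks.

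Members in 5′ UTRs lay closest to transcript starts, near which this class lies by definition. The median distance of these members to the nearest start was 788 bp, and 32 of 46 were within 1000 bp. The share of all 5′ UTR bases at such distances was not computed. For 27 of the 46 the summit was intronic in another transcript of the same gene, so these exons are spliced out of some transcripts. The strongest was in Fbl6, an F-box and leucine-rich repeat protein gene, with a signal of 1142.5 and ranks of 257, 319 and 174. The summit in cic, which encodes the HMG-box repressor Capicua of the Ras pathway, had 861.0 and the almost constant ranks of 492, 475 and 475. JIL-1, a kinase of histone H3, had 644.9 with ranks of 905, 867 and 848. Mef2, the MADS-box regulator of muscle, had 612.3 here and a further summit of 617.8 in its 3′ UTR. The gene eas, encoding ethanolamine kinase, had 600.2, and Raf, the kinase that relays Ras signals, had 590.3. All 6 were among the top 8551 of each replicate, and the lowest rank among them was 1352, for Raf in replicate 1.

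Members in coding exons were few and mostly weak. Their median signal was 176, against 225 for all peaks, and 6 of 21 were among the 4275 peaks of higher signal. A clear exception was CG43389 with 1513.9 at chr3L:3248807 and ranks of 91, 172 and 121. Its summit lay 533 bp from the start of lncRNA:CR43626, the host of mir-282, and so only just beyond the promoter limit. Another summit of the thresholded list lay 202 bp from it. The summit in otp, a homeodomain regulator gene, had 721.7 with ranks of 695, 687 and 802, and was exonic in all 9 transcripts there. CG10357, whose summit lay on its stop codon, had 469.9 and ranks of 1434, 1275 and 2719. The gene bif, encoding an actin-binding protein of photoreceptors, was the only gene with 3 coding summits, all in the same 2537 bp exon. Their signals were 337.2, 194.4 and 140.8. The weakest lay 204 bp from the strongest and was in no replicate's top list, with ranks of 12438, 9316 and 18811. The fifth strongest, in klar, which encodes a nuclear envelope protein that moves nuclei, had 331.7 with ranks of 2302, 2818 and 2666. Of the 21 coding summits, 17 were intronic in no transcript.

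Members in 3′ UTRs lay near gene ends, as the class itself does. Of 82 summits, 44 (53.7%) were within 500 bp of the end of the host gene and 20 (24.4%) within 100 bp, beside 44.6 and 14.1% of all 3′ UTR bases outside promoters. For 44 the nearest start belonged to another gene. The strongest lay in CG7872, 58 bp from its end, with a signal of 1310.5 and ranks of 143, 169 and 185. Pp1-87B, a catalytic subunit of type 1 protein phosphatase, had 1117.3, and its ranks of 484, 197 and 283 varied more. Ance-3, of the angiotensin-converting enzyme family, had 1045.8 with ranks of 309, 290 and 234. The tensin gene by, active at integrin adhesions, had 1015.9 with ranks of 345, 401 and 211. Cals, the calsyntenin gene, had 839.9 with ranks of 527, 570 and 466, and its summit was 9624 bp from the nearest start. CG33307 (733.6) and stas (724.5) followed. The X-linked gene CG12535 had 3 exonic summits of 317.2, 179.3 and 178.9, of which the first also lay in the 3′ UTR of Myc, the growth regulator.

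Inside rgr itself 2 members were found. A summit in a coding exon had a signal of 207.2, near the exonic median of 199, and ranks of 5462, 5914 and 2699, so it was in the top list of each replicate. A summit in the 3′ UTR, in sequence shared with the overlapping gene CG8642, had 171.2 and ranks of 14331, 3796 and 27151, and was in the top list of replicate 2 alone. The transgene carries rgr sequence too, and its copies cannot be told apart from the native gene in these lists.

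The distance limit cut through a continuous range of positions. The members just inside it were at 505 bp in lncRNA:CR44619 (2764.0), 506 bp in lncRNA:CR43932 (239.8) and 516 bp in lncRNA:CR45392 (232.1). The exonic summits just outside it were at 500 bp in BBS8 (764.9), 499 bp in loco (320.3) and 494 bp in Syp (198.7). In all, 1423 peaks had their summit in an exon, and 1192 of these were within 500 bp of a start. A limit of 250 bp would have given 349 members and a limit of 1000 bp 144. Over the members the median distance was 1245 bp, 87 (37.7%) were within 1000 bp and 17 were beyond 5000 bp. The class medians were 788 bp for 5′ UTRs, 1198 bp for coding exons, 1608 bp for 3′ UTRs and 1153 bp for noncoding exons. In total 153 members (66.2%) were intronic in no annotated transcript. Another summit of the thresholded list lay within 250 bp of 22 members, and the count over all peaks is not given here. The smallest distance between any 2 thresholded summits was 199 bp, and whether such close summits are separate sites was not tested.

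**Figure D3:**
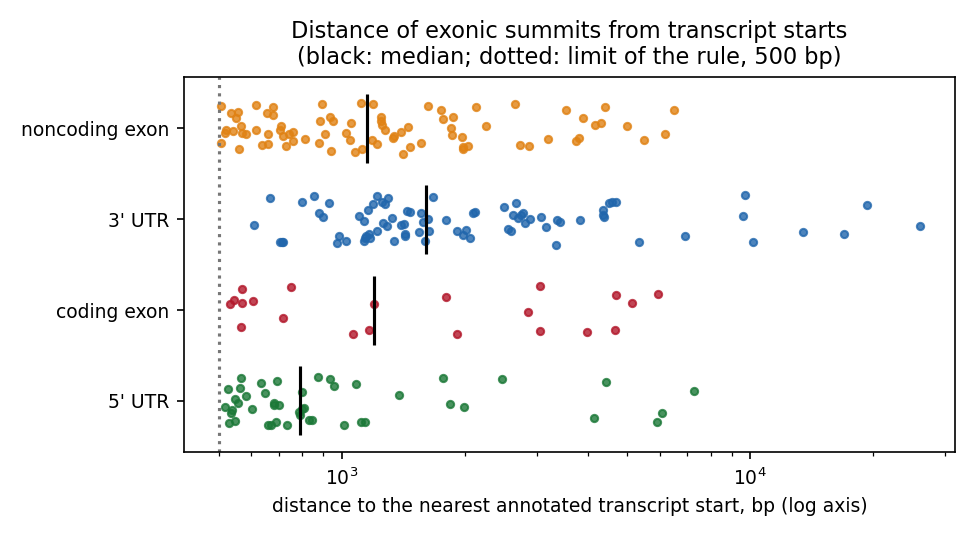
Distance of each member from the nearest annotated transcript start, in bp on a log axis, by kind of exon, with the median in black and the 500 bp limit dotted. The median is lowest for 5′ UTR summits (788 bp) and highest for 3′ UTR summits (1608 bp), which follows in part from where these exons lie in genes.

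Exonic peaks were slightly weaker than other peaks. The share that recurred was close to that of other peaks, though slightly smaller in each replicate. The median signal was 199 for exonic, 215 for intronic, 209 for intergenic and 242 for promoter peaks, and 97 exonic peaks (42.0%) were among the 4275 of higher signal. A summit within 100 bp in the top 8551 of all 3 replicates was found for 140 of 231 exonic peaks, or 60.6% (exact 95% interval 54.0 to 67.0%). The share was 64.8% for all, 64.0% for intronic, 62.9% for intergenic and 66.4% for promoter peaks. The interval covers counting error over peaks and is no test between classes. A further 51 exonic peaks were in the top lists of 2 replicates, 35 of 1 and 5 of none, beside 1892, 997 and 118 of all 8551 peaks. By replicate, 81.0, 85.7 and 74.5% of exonic peaks were recovered, beside 82.1, 87.7 and 78.3% of intronic peaks. The exonic share was lower in 3 of 3 replicates, and the difference of -2.31 ± 1.38 percentage points (SD, n = 3) had p = 0.25 in the exact sign-flip permutation test, the smallest possible. When any of the 30000 entries of a replicate counted as a match, the shares found in all 3 differed by only 0.01 percentage points. Since the thresholded list was derived from these replicates, the shares themselves are partly set by that choice. Across all 30000 entries of each replicate, 209 of 231 members had a match in all 3, beside 7651 of all 8551 peaks. Members missing from replicates 1, 2 and 3 numbered 7, 3 and 15. The worst rank was over 3 times the best for 14 members, and the count over all peaks is not given here.

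**Figure D4:**
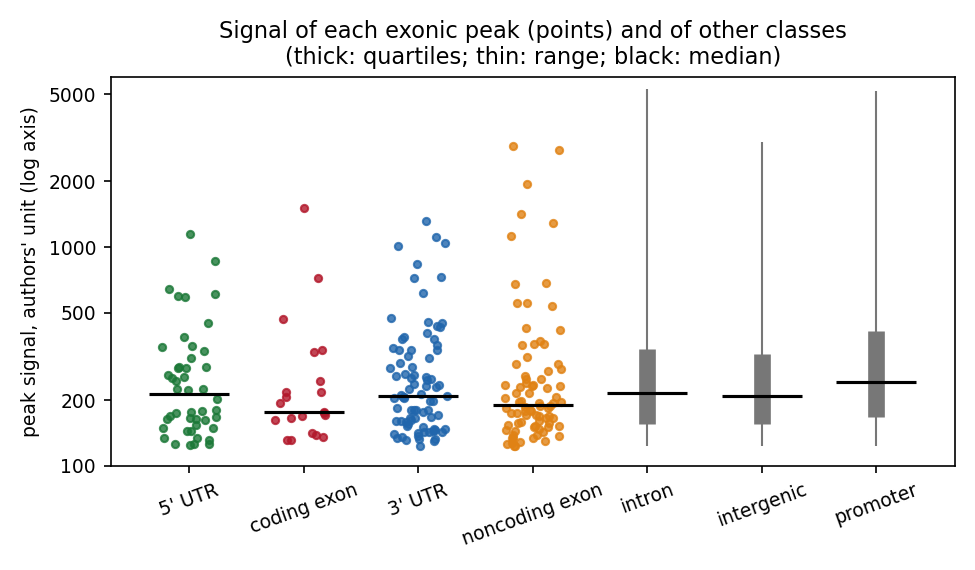
The authors' peak signal on a log axis for each exonic peak (points) by kind of exon, with the median in black, beside the quartiles (thick) and range (thin) of intronic, intergenic and promoter peaks. Medians are 213, 176, 209 and 191 for 5′ UTR, coding, 3′ UTR and noncoding exons, and the highest points are in noncoding exons.

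Base composition set the kinds of exon apart. Within 50 bp of the summit, noncoding exon members were 65.6% A or T against 55.4% in windows 300 bp to either side, close to the 65.8 and 56.2% of intronic peaks. All bases of that class were 58.0% A or T. In the replicates the rise at the summit was 10.75, 9.78 and 8.61 percentage points, or 9.71 ± 1.07 (SD, n = 3). In coding exons it went the other way, with 46.7% at the summit and 54.3% beside it, a difference of -7.78 ± 1.24 over the replicates (-9.04, -6.56 and -7.74). Coding sequence as a whole was also 46.7% A or T, and the median coding summit was 120 bp from the edge of its exon, so many flanking windows reached beyond it. In 3′ UTRs the replicates gave 62.6% ± 0.40 at the summit, higher than beside it by 2.51 ± 0.58 (SD, n = 3) and below the 64.8% of all 3′ UTR bases. The 5′ UTRs gave 2.09, -1.44 and -3.20, which has no constant sign (exact sign-flip permutation p = 0.75), and without replicate 3 their mean turned positive, at 0.32. The other 3 differences had one sign in 3 of 3 replicates, with p = 0.25 in the same exact permutation test, the smallest possible. Single members followed their class in part: the summit was richer in A and T than its flanks in 67 of 82 noncoding, 48 of 82 3′ UTR, 17 of 46 5′ UTR and 6 of 21 coding members. CG43389, one of those 6, had 64.4% against 44.6%, while otp had 39.6% against 69.3% and Ubr1, the gene of an N-end rule ubiquitin ligase, 31.7% against 61.9%.

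**Figure D5:**
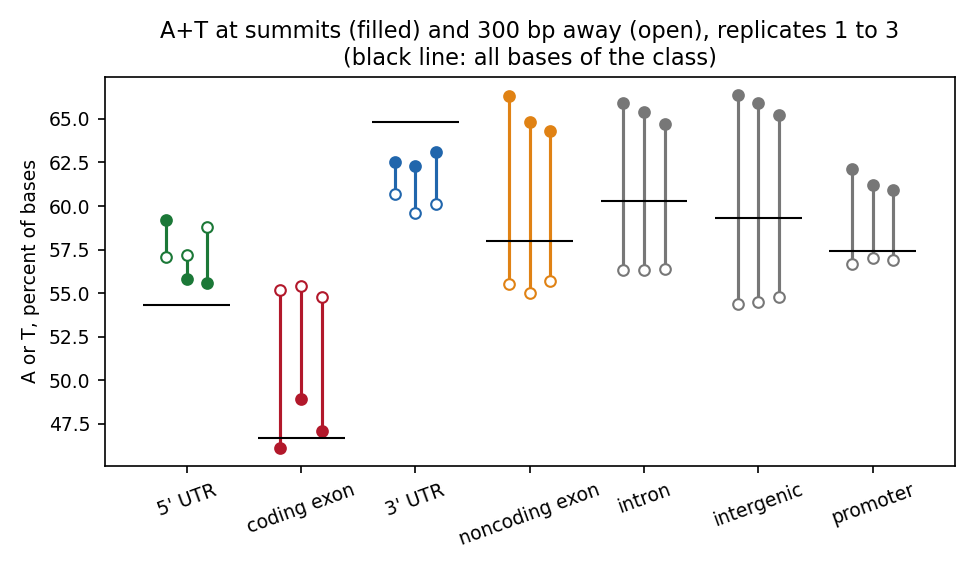
A or T content in percent within 50 bp of the summit (filled) and 300 bp away (open) for replicates 1 to 3, by annotation class, with a black line for all bases of the class. Noncoding exons rise by 8.61 to 10.75 percentage points like introns, whereas coding exons fall in each replicate.

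The words searched differed widely in how often they occurred at exonic summits. The DRE word TATCGATA and the M1BP word GGTCACAC, searched on both strands within 50 bp, occurred at 0 of 231 summits, beside 153 and 113 of the 3896 promoter peaks and 161 and 128 of all 8551 peaks. They were nearly as rare at other peaks away from starts, with 0.188 and 0.345% of intronic and 0.162 and 0.324% of intergenic summits. The E-box CACGTG, the AP-1 word TGACTCA and the Su(H) word GTGGGAA were also at 0 of 231, beside 0.795, 0.877 and 0.854% of all peaks. In the exonic summits of the replicates, AP-1 was at 0.719% ± 0.231 (SD, n = 3), the same as in their flanks, and Su(H) at 0.152% ± 0.262. The 3 most common words were hexamers made of A and T. TATAAA was at 38 summits (16.5%, against 9.09% of flanks, 16.8% of promoter peaks and 19.0% of all peaks), of which 22 were in noncoding exons, 14 in 3′ UTRs, 2 in 5′ UTRs and 0 in coding exons. AATAAA, the polyadenylation signal, was at 62 summits (26.8%, against 20.1% of flanks and 27.3% of all peaks), with 25 in 3′ UTRs and 24 in noncoding exons. AAATAT was at 52 (22.5%, against 15.8% of flanks and 29.7% of all peaks). In the replicates these shares were 16.8% ± 1.20, 27.3% ± 4.48 and 21.8% ± 3.37 (SD, n = 3), each above its flanks in 3 of 3. Other words of A and T were less common. TAATTA, a homeodomain word, was at 5.63% of summits and 5.41% of flanks, against 8.53% of all peaks. The run AAAAAAAA was at 5.63% of summits and 6.71% of flanks, against 7.75% of all peaks, and was above its flanks in 1 of 3 replicates. TGTTTAC, a forkhead word, was at 2.60% of both, against 3.44% of all peaks. CACACACA was rarer at summits (3.46%) than beside them (6.06%), though commoner than at all peaks (1.63%). The absence of a word says only that these letters are not in the window.

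The host genes were 142 protein-coding and 63 noncoding genes. Protein-coding hosts made up 1.02% of all 13968 protein-coding genes. Of the 142, 75 (52.8%, exact 95% interval 44.3 to 61.2%) also had a promoter peak, beside 29% of all protein-coding genes and 60.6% of the 1303 genes with an intronic peak. Hosts were long, with a median of 7196 bp against 2164 bp for all genes and 17429 bp for intronic hosts. A member must lie over 500 bp from every start, so the rule itself leaves out the shortest genes as hosts. The part of gene length in the shares above was not tested. Across 15 lists with 459 matched genes, 20 genes (4.36%) had an exonic peak. The lists were written with earlier results of these data known and were not matched for gene length, so this share is a description only. Of 28 ecdysone response genes 5 did, namely the nuclear receptor genes Hr4 (281.6, 3′ UTR) and EcR (134.3, 5′ UTR), the zinc finger genes Kr-h1 (165.1) and crol (149.7), and the cell cycle factor gene E2f1 (202.5). Of 53 cytoskeleton and adhesion genes 6 did, led by chic (311.1), the profilin gene, baz (222.9), a polarity gene, and rst (166.1), a cell adhesion gene. Of 32 Egfr and Ras genes 4 did, led by Raf (590.3), sty (163.0), which encodes the feedback inhibitor Sprouty, and the adaptor gene dos (162.4). The zinc finger and BTB list had 3 of 31, cbt (167.9) besides Kr-h1 and crol. The patterning list had 1 of 50 (ush, 282.6), the Hippo list 1 of 17 (the kinase gene wts, 281.2), the Polycomb and trithorax list 1 of 29 (jing, 217.9) and the insulin and TOR list 1 of 28 (the kinase gene Lk6, 143.0). There were 0 of 24 Wnt, 0 of 23 Notch, 0 of 43 RNA-binding, 0 of 49 neuronal, 0 of 19 boundary factor, 0 of 25 heat shock and 0 of 24 JNK genes. With a background of 1.02%, a list of that size would hold few such genes in any case.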

How the data were processed

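The analysis started from the dm6 peak lists the authors deposited for 3 replicates and for the replicates pooled. Per the file listing, each list was called with a control alignment and the thresholded list was derived by the irreproducible discovery rate. The aligner, peak caller and threshold were not given in the sources used here. No scaling of the deposited peak signal across lists is stated, and signal was therefore compared within a list alone. The −log10 q-value column of the authors played no part in ranking, and summits come from the deposited offset (column 10, unit other). The thresholded list was identical to the 8551 entries of highest signal in the pooled list of 30000. The lists hold no read counts, so depth is unknown, and binomial intervals cover counting error only. The dm3 lists were not used here, and 0 columns of per-sample values were left over.

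Annotation was Ensembl release 115 (BDGP6.54) on 7 chromosome arms, and sequence came from RefSeq. Where features overlapped, a summit took the first that applied of these: within 500 bp of a start (promoter), 5′ UTR, coding exon with the stop codon, 3′ UTR, noncoding exon, intron and intergenic sequence. Replicates were cut to their top 8551 entries, and summits matched within 100 bp. Replicate differences were tested with an exact two-sided sign-flip permutation test. When all 3 values have one sign, its p-value is 0.25 whatever their size or spread. The p-values concern only these 3 samples. The members, the 15 gene lists, the 18 words and the tests were chosen with earlier results of these data known. Genes named are those of the 25 strongest members, the 5 strongest per exon kind, members in rgr, the 3 nearest to each side of the limit, genes with 3 or more members, and up to 3 per gene list. The other genes named in the lists, the microRNA hosts as a group and the sequences of Ubr1 and Snx27 were chosen after their values were seen. Alternatives were other distances, windows, annotations and stronger peaks, and leaving out each replicate. Functions were tested on simulated data. The scripts ran under Python 3.11.15 with pandas 2.3.3, numpy 2.4.6, scipy 1.17.1 and, for plots, matplotlib 3.10.9.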

Additional observations from a re-analysis of the deposited data

How the results depend on the processing

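No paired analysis was possible because there is only 1 group. Of 86 alternative values, 56 were called unmoved, which means within 1 replicate SD, within 1.5 times the main count, or for a single word within its binomial interval. Leaving out 1 of 3 replicates cannot move a mean density ratio or mean A and T difference by 1 SD. Those values could thus only be called unmoved or reversed, and their part of the 56 was fixed in advance. The count of 231 became 349 at 250 bp, 144 at 1000 bp, 97 among the stronger peaks and 153 for summits intronic in no transcript. Members found in the top lists of both remaining replicates numbered 150 to 167 when 1 replicate was left out, lowest without replicate 2, which is an added requirement beside 140 for all 3. The count was 232 with RefSeq and 322 with protein-coding starts only. At 1000 bp, the log2 density ratio to introns was -5.94 for coding exons, -1.94 for 3′ UTRs and -0.98 for 5′ UTRs. With the top entries only it was -6.20 for coding exons, -0.44 for 5′ UTRs and, reversed, -0.03 for noncoding exons, and the cause was not tested. Leaving out a replicate gave -5.78 to -5.69 for coding exons, -2.16 to -2.15 for 3′ UTRs, -0.28 to -0.09 for 5′ UTRs and 0.26 to 0.34 for noncoding exons.

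The share in all 3 replicates, 60.6%, was 46.32% with matching within 50 bp, 66.67% within 200 bp, 90.48% over all entries, 88.66% for the stronger peaks, 62.50% at 1000 bp and 64.94 to 72.29% without 1 replicate. Exonic minus intronic, it moved from -3.44 to -1.33 within 50 bp, 0.01 over all entries, -6.17 for the stronger peaks, -0.61 at 1000 bp and -4.37 to -1.87 without 1 replicate, so its sign rests on the entries compared. The A and T difference became -9.12 (25 bp window) and -5.67 (100 bp window) in coding exons, 10.98, 7.97 and, with flanks at 500 bp, 8.49 in noncoding exons, and 3.56 with those flanks in 3′ UTRs. Without 1 replicate it was -8.39 to -7.15 in coding exons, 9.19 to 10.26 in noncoding exons, 2.29 to 2.84 in 3′ UTRs, 2.88 to 3.73 in all exons and -2.32 to 0.32 in 5′ UTRs, where it turned positive without replicate 3. The 20 listed host genes were 10 at 1000 bp. Words above their flanks numbered 9, 8 with the 100 bp window and 6 with the 500 bp flank. Read depth is unknown, so the weakest summit that could be detected cannot be given.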
